A study of Capra hircus with 6 samples.

Results

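The secretory pathway and unfolded protein response (UPR) genes described here are 46 genes that fold proteins in the endoplasmic reticulum (ER), check them, and move them through the Golgi to the cell surface. A row of the authors' deposited table of differing ATAC-seq regions was counted when its centre lay inside one of these genes or within 50000 bp of one of its ends, with gene positions from the goat RefSeq annotation of ARS1.2 and with no filter on p. This gave 191 of the 30714 listed regions. They form 194 pairs of a region and a gene, because 3 regions lie within reach of both *SAR1B* and *SEC24A*. Of the 46 genes, 42 (91.3%) had at least 1 listed region, against 79.7% of the 19063 protein-coding genes on the numbered chromosomes.

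The libraries were made from cells labelled mammary epithelial cells of the mammary gland of *Capra hircus*, the domestic goat. There were 3 libraries of the lactation period (replicates 1, 2 and 5) and 3 of the dry period (replicates 1, 2 and 3), when the gland makes no milk. Breed, age, parity and the number of goats are not given in the labels, so p-values cover at most the variation among these libraries, and that variation may be technical. ATAC-seq uses the Tn5 transposase to cut and tag DNA that is not wrapped in nucleosomes, and its signal at a site is higher where more cells have the site open. The authors' deposited table holds 1 value per region for the whole comparison and none per library, so depth and replicate spread are unknown. In such bulk samples a change in the share of a cell type and a change in accessibility per cell cannot be told apart.

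Each listed region has a position, a fold change (a linear ratio of one period over the other), a p-value and a false discovery rate (FDR). The region names fall into set 1 and set 2, and every fold change is above 1 in both, so each set was read as the regions more accessible in one of the periods. Which period belongs to which set is stated neither in the table nor in the labels. The title of the table puts the dry libraries before the lactation libraries, and set 1 would be the dry period if the numbering keeps that order, but this was not settled and directions are given by set. The table lists differing regions and no levels, so the cell type label could not be checked against marker levels. Among marker genes, 8 of 8 luminal, 6 of 6 placed basal, 5 of 6 immune, 5 of 5 endothelial and 3 of 5 fibroblast genes had a listed region, against 79.7% of coding genes. A region at an FDR under 0.05 was found at 8 luminal, 3 basal, 4 immune, 4 endothelial and 1 fibroblast marker, against 51.4% of coding genes. In set 2 such a region was found at 3 endothelial, 1 immune and 0 luminal, basal and fibroblast markers, against 5.06% of coding genes. The luminal, basal and fibroblast markers with such a region thus had theirs in set 1 alone. Set 1 held 91.5% of all regions at an FDR under 0.05, and all of those at the secretory genes. The part of cell mixture in the results on the secretory genes was not tested.

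Secreted proteins enter the ER through the SEC61 channel, lose their signal peptide, and are folded by chaperones and disulfide isomerases. Misfolded chains are pulled back and degraded, and folded cargo leaves in vesicles coated with COPII. When unfolded protein accumulates, the sensors IRE1 (*ERN1*), PERK (*EIF2AK3*) and ATF6 switch on factors such as XBP1 and ATF4, which raise the output of this machinery. The lactating mammary epithelium is known as a tissue that secretes large amounts of protein. The roles given for single genes below are those known from human and mouse cells.

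The regions at the secretory genes lay mostly in set 1. Of the 191 regions, 168 were in set 1 and 23 in set 2. Set 1 thus held 88.0% of them (82.6% to 91.8%, a 95% Wilson interval that covers only counting error), against 74.5% of all listed regions. The whole table holds many regions far from genes, and regions in crowded stretches count for several genes at once. Counted as pairs of a region and a gene, the set 1 share was 88.1% at the secretory genes and 84.3% over all coding genes, so most of the distance to the table as a whole was also seen for coding genes in general. At an FDR under 0.05 there were 53 regions, or 27.7% of the 191 (21.9% to 34.5%), against 27.8% of all listed regions. The share that passed was thus close to the background. Counted as pairs it was 27.8% at the secretory genes and 30.3% over all coding genes.

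Set 2 gave no region at an FDR under 0.05. All 53 that passed were in set 1, against 91.5% of all regions that passed. Counted as pairs over all coding genes, set 1 held 95.4% of those that passed. Of 168 set 1 regions 31.5% passed, against 34.2% of all set 1 regions. Of 23 set 2 regions 0 passed, against 9.23% of all set 2 regions. Taking 3 regions as the upper limit for a count of 0, a rule of thumb and not a Wilson interval, allows a share of up to 13.0%. This count thus does not set the secretory genes apart at this number of regions. All 23 had an unadjusted p under 0.001, and so under 0.05, as every listed region has; the tool that gave p is not stated in the sources used here. The limit on p that goes with an FDR of 0.05 was 6.21e-05 in set 1 and 5.63e-06 in set 2. Under the set 1 limit, 3 of the 23 set 2 regions (13.0%) would have passed, against 23.4% of all set 2 regions. They lie at *EDEM1*, *ATF6* and *LMAN1*.

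By gene, 27 of 46 (58.7%) had a region at an FDR under 0.05, against 51.4% of coding genes. All 27 had it in set 1, against 48.9% of coding genes, and 0 had one in set 2, against 5.06%. Listed regions of set 1 alone were found at 27 genes (58.7%, against 42.1% of coding genes) and of set 2 alone at 6 (13.0%, against 8.29%). Regions of both sets were found at 9 genes (19.6%, against 29.3%), so 15 genes (32.6%, against 37.6%) had a set 2 region. The genes with 0 listed regions were *EIF2AK3*, *ERO1B*, *DNAJB9* and *SPCS1*. For these 4 genes a lack of rows does not say whether the chromatin was accessible.

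**Figure D1:**
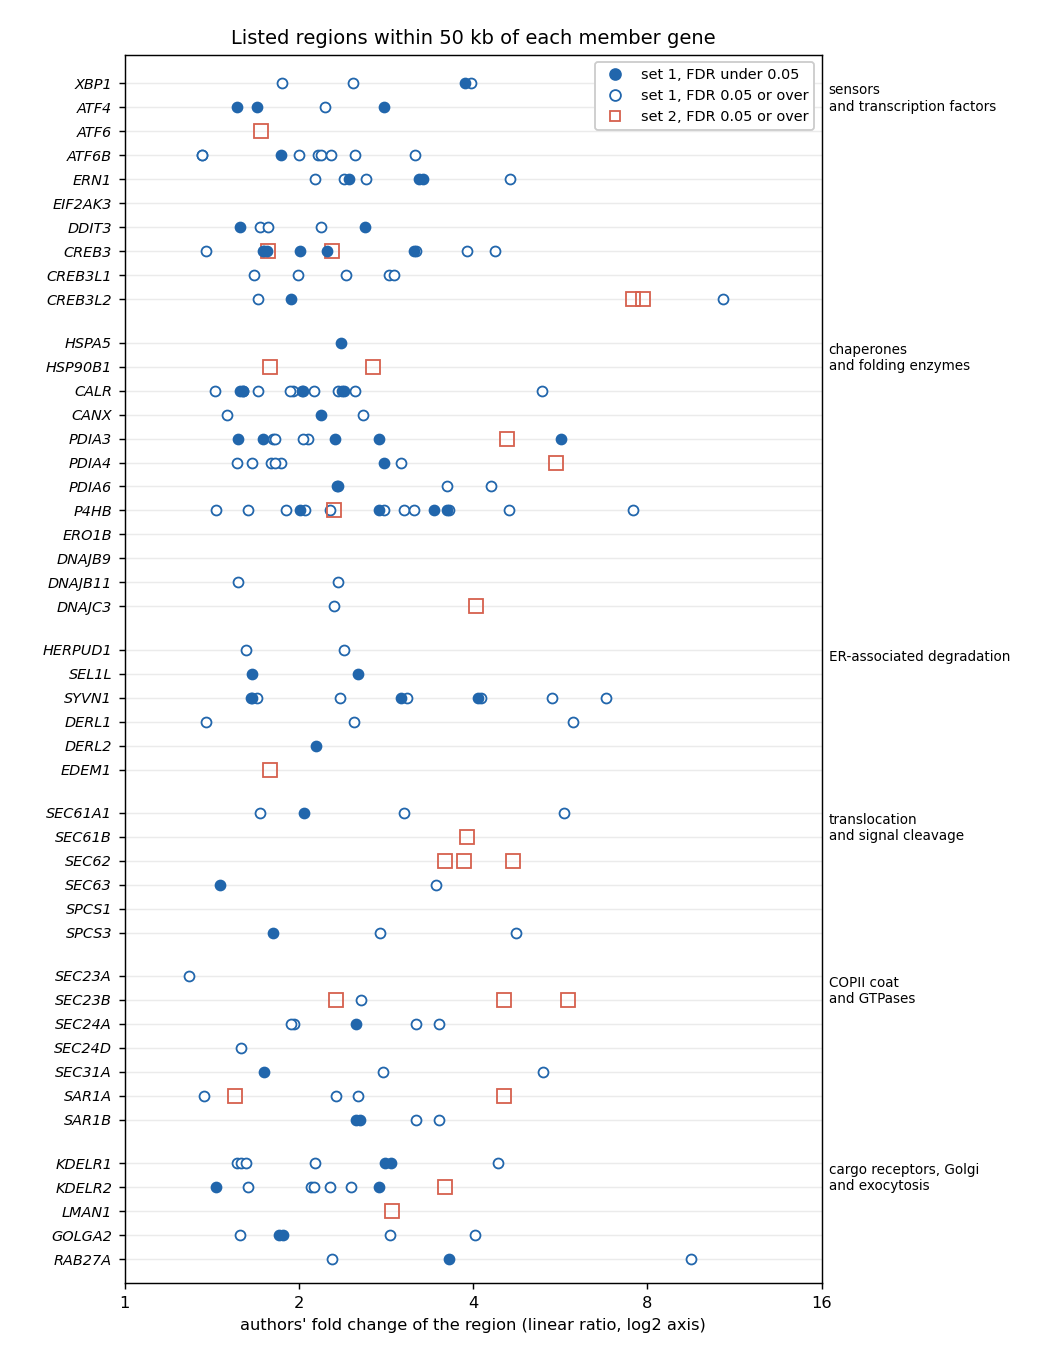
Authors' fold change of each listed region (x axis, linear ratio on a log2 axis) at each of the 46 genes (rows, grouped by role). Blue circles are set 1 regions, filled at an FDR under 0.05, and red squares are set 2 regions; every filled marker is in set 1, and rows without a marker are genes with 0 listed regions.

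Fold changes were moderate and close to those of the table. The median was 2.26 in set 1 (interquartile range 1.76 to 2.89), against 2.39 over all set 1 regions, and 3.58 in set 2 (2.29 to 4.55), against 3.59 over all set 2 regions, by the authors' deposited table. Set 1 regions at the secretory genes ranged from 1.29 to 10.8 and set 2 regions from 1.55 to 7.85 by the authors' deposited table. The largest folds did not belong to the regions that passed. In the authors' deposited table the highest was 10.8, in set 1 inside *CREB3L2* (FDR = 0.0701), followed by 9.52 inside *RAB27A* (FDR = 0.181). Narrow regions passed rarely: of 77 set 1 regions that were 200 bp wide 6.49% passed, of 64 that were 300 to 400 bp wide 43.8%, and of 27 that were 500 bp or wider 74.1%. The same order held over all set 1 regions, at 6.61%, 47.3% and 84.3%.

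**Figure D2:**
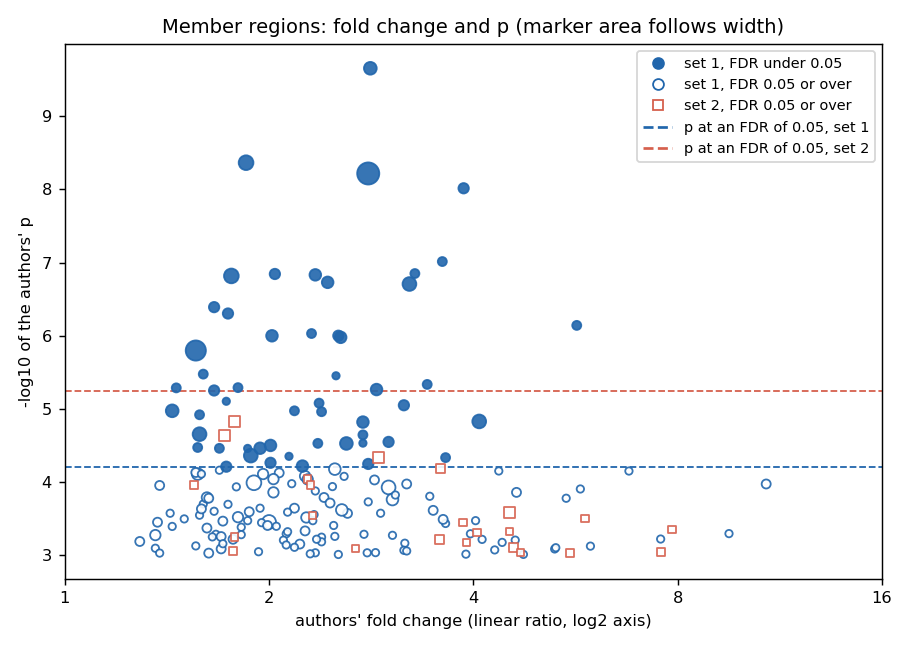
Authors' fold change (x axis, linear ratio on a log2 axis) against −log10 of the authors' p (y axis) for the 191 regions, with marker area following width. The dashed lines are the p limits that go with an FDR of 0.05 in set 1 (6.21e-05) and in set 2 (5.63e-06); the 23 set 2 squares all lie below their own line, and 3 lie above that of set 1.

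Of the UPR sensors, IRE1 and ATF6 had listed regions and PERK had none. At *ERN1*, the kinase and RNase IRE1 that splices *XBP1* mRNA, 7 regions were listed, all in set 1, and 3 passed an FDR of 0.05. The one nearest to the gene end lies inside it on chromosome 19 at 47963901 to 47964400, 833 bp from an end, with a fold of 2.44 by the authors' deposited table (FDR = 0.000882). A second, 3367 bp outside the gene at 47968201 to 47968500, had a fold of 3.28 by the authors' deposited table (FDR = 0.000721). The third lies 17967 bp out and 654 bp from an end of *TEX2*, with 3.22 by the authors' deposited table (FDR = 0.000916). All 3 are wider than 200 bp, and the first 2 have *ERN1* as their nearest coding gene. *EIF2AK3*, the kinase PERK that slows translation, had 0 listed regions. *ATF6*, the sensor that is cut in the Golgi to free a transcription factor, had a single region, in set 2 and 31038 bp from the gene, with a fold of 1.72 by the authors' deposited table (p = 2.29e-05, FDR = 0.12); it is nearest to *FCRLB*. Its relative *ATF6B* had 9 regions, all in set 1, in a window with 9 other coding genes. Of these 1 passed, 10850 bp from the gene, with a fold of 1.86 by the authors' deposited table (FDR = 0.0340). The one nearest to an end of *ATF6B*, 2950 bp outside it, had 2.16 by the authors' deposited table (FDR = 0.0695).

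The transcription factors downstream of the sensors had passing set 1 regions near them, none of which lay inside *ATF4*, *XBP1* or *DDIT3*. *ATF4*, the factor made when PERK slows translation, had 4 set 1 regions, of which the 3 that passed form a run of 4000 bp on chromosome 5 from 109876201 to 109880200. The widest, 1800 bp, had a fold of 2.80 by the authors' deposited table (p = 6.05e-09, FDR = 6.78e-05) and lies 4891 bp from *ATF4*. The next, 1500 bp wide, lies 2941 bp from *ATF4* with a fold of 1.56 by the authors' deposited table (FDR = 0.00410), and the third had 1.69 (FDR = 0.0339). These are the only 2 secretory regions of 1500 bp or more, a width reached by 27 (0.0879%) of all listed regions. All 3 lie closer to *RPS19BP1*, at 198 to 1515 bp from its nearer end, than to *ATF4*. At *XBP1*, the factor that drives expansion of the ER, 4 set 1 regions were listed. Its only region at an FDR under 0.05 lies 35627 bp away on chromosome 17 at 3082301 to 3082700, 1143 bp from an end of *HSCB*, with a fold of 3.87 by the authors' deposited table (p = 9.64e-09, FDR = 9.60e-05). Closer in, a pair of 200 bp regions lay 727 and 1027 bp outside *XBP1*, with fold changes of 3.96 (FDR = 0.182) and 2.48 (FDR = 0.0736) by the authors' deposited table. *DDIT3*, the pro-apoptotic factor CHOP, had 5 set 1 regions, 2 of them passing. One lies 1066 bp from *DDIT3* and 885 bp from an end of *MBD6*, with 1.58 by the authors' deposited table (FDR = 0.0253). The other lies 3948 bp from *DDIT3* and inside *MARS*, with 2.60 by the authors' deposited table (FDR = 0.0308). Another region lies inside *DDIT3*, 902 bp from an end, with 1.71 by the authors' deposited table (FDR = 0.143).

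The CREB3 family are ER-anchored factors released by cleavage in the Golgi, and they turn on genes of transport. *CREB3* had 10 set 1 and 2 set 2 regions in a window with 6 other coding genes. Its 5 regions at an FDR under 0.05 all lie outside the gene, from 3011 to 33329 bp away. The one with the smallest p lies on chromosome 8 at 59730501 to 59731300, 865 bp from an end of *GBA2*, with a fold of 1.76 by the authors' deposited table (FDR = 0.000761). The other 4 had folds of 1.73 to 3.16 by the authors' deposited table. Inside *CREB3* there were 2 set 1 regions, at 539 and 839 bp from an end, with folds of 1.38 (FDR = 0.259) and 1.74 (FDR = 0.104) by the authors' deposited table. The *CREB3* set 2 regions lay 44161 and 49361 bp away, with folds of 2.28 and 1.77 by the authors' deposited table. *CREB3L1* had 5 set 1 regions and none passed, with folds of 1.67 to 2.92 and a lowest FDR of 0.0645 by the authors' deposited table. The lowest of these folds, 1.67, belongs to a region inside *CREB3L1*, 923 bp from an end (FDR = 0.184 by the authors' deposited table). *CREB3L2* held the largest fold of set 1 and the 2 largest of set 2 among the 191 regions. Beside the set 1 region of 10.8, it had 2 set 2 regions of 200 bp, one 9276 bp outside with 7.85 (FDR = 0.603) and one inside with 7.56 (FDR = 0.822) by the authors' deposited table. None of these 3 passed, and its only passing region, in set 1, had 1.94 by the authors' deposited table (FDR = 0.0339) and lies 31592 bp away, 329 bp from an end of *DGKI*.

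Over the 10 sensors and factors, 47 of 52 regions were in set 1, and 16 regions at 7 genes passed. By regions the passing share was 30.8%, near the 27.8% of all listed regions. The share of genes with a passing region was 70.0%, against 51.4% of coding genes.

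Chaperones and folding enzymes had the most regions of any role, 63 at 12 genes, of which 57 were in set 1 and 18 passed. The passing share was 28.6% of regions, against 27.8% of all listed regions, and 58.3% of genes, against 51.4% of coding genes. The regions were unevenly spread. *HSPA5*, the main ER chaperone BiP, had a single region, in set 1, 9483 bp away on chromosome 11 at 95638501 to 95638800, with a fold of 2.36 by the authors' deposited table (FDR = 0.0307). It is nearest to *GAPVD1*. *HSP90B1*, the chaperone GRP94, had 2 regions, both in set 2, at 27189 and 29089 bp, with folds of 1.78 and 2.68 by the authors' deposited table (lowest FDR = 0.670). The co-chaperones of BiP had little: *DNAJB9* had 0 regions, *DNAJB11* 2 in set 1, and *DNAJC3* 1 in each set. The *DNAJB11* region closest to the gene, 2042 bp outside it, had a fold of 2.34 by the authors' deposited table (FDR = 0.08). The set 2 region of *DNAJC3* had a fold of 4.05 by the authors' deposited table (FDR = 0.628) and lies 504 bp from an end of *UGGT2*, which encodes a relative of the glucosyltransferase that senses glycoprotein folding.

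The lectin chaperones calreticulin and calnexin, which hold glycoproteins during folding, differed in their number of regions and of neighbouring genes. *CALR* had 15 regions, all in set 1, in a window with 7 other coding genes, and 5 passed. It was the nearest coding gene of 3 of the 15. The passing region with the smallest p lies inside the gene on chromosome 7 at 97994401 to 97994900, 1475 bp from an end, with a fold of 2.02 by the authors' deposited table (p = 1.00e-06, FDR = 0.00300). The other 4 lie 21525 to 47625 bp away, nearest to *GADD45GIP1*, *GCDH* or *KLF1*, with folds of 1.58 to 2.39 by the authors' deposited table. A further 3 regions within 3000 bp of an end of *CALR* did not pass, with folds of 1.43, 1.93 and 2.12 by the authors' deposited table. *CANX*, with 2 other coding genes in its window, had 3 set 1 regions, none within 3000 bp. Of these 1 passed, at 45881 bp with 2.18 by the authors' deposited table (FDR = 0.0155).

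The disulfide isomerases, which form and shuffle disulfide bonds, each had a passing set 1 region, as did 48.9% of coding genes. *P4HB* and *PDIA3* lie in windows with 9 other coding genes, and 76% of coding genes with 6 or more neighbours had a passing region. *P4HB* had the most regions of all 46 genes, 15 in set 1 and 1 in set 2. Passing regions of *P4HB* lie on chromosome 19 at 50403201 to 50403500, 1712 bp outside the gene (fold of 3.42 by the authors' deposited table, FDR = 0.00869), and inside it at 50407301 to 50407700, 2438 bp from an end (2.01, FDR = 0.0459). The other 2 lie 10862 and 18150 bp out, with folds of 2.75 and 3.60 by the authors' deposited table, and the last has the smallest p at *P4HB* (FDR = 0.000544) and lies 1171 bp from an end of *GCGR*. The largest fold at *P4HB*, 7.55 by the authors' deposited table (FDR = 0.200), belongs to a set 1 region 403 bp from an end of *PPP1R27*. The set 2 region of *P4HB* is centred on one end of the gene, with a fold of 2.30 by the authors' deposited table (p = 0.000109, FDR = 0.298). The other end of the gene, by contrast, has the 2 passing set 1 regions near it. *PDIA3*, which works with the lectin chaperones, had 9 set 1 regions and 1 in set 2, and 5 passed. Just outside *PDIA3* a pair of passing regions lies on chromosome 21 between 54880201 and 54880800, 1045 and 695 bp from the gene end and inside *CATSPER2*, with folds of 2.31 (FDR = 0.00284) and 1.73 (FDR = 0.0125) by the authors' deposited table. A region 3942 bp away with a fold of 5.68 by the authors' deposited table (FDR = 0.00237) has the largest fold of all 53 passing regions. The other 2 that passed lie 26842 and 44442 bp from *PDIA3*, with 2.75 and 1.57 by the authors' deposited table. One more region lies inside *PDIA3*, 2105 bp from an end, with 2.03 by the authors' deposited table (FDR = 0.0635).

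*PDIA4* differed from these in having only 2 other coding genes near it. It had 7 set 1 regions and 1 set 2 region, and *PDIA4* was the nearest coding gene of 7 of the 8. The passing one lies 41872 bp away on chromosome 4 at 8525001 to 8525400, with a fold of 2.80 by the authors' deposited table (FDR = 0.0470). One inside the gene, 791 bp from an end, had 1.66 by the authors' deposited table (FDR = 0.119), and its set 2 region had 5.55 (FDR = 0.832). *PDIA6* had 4 set 1 regions, 1 of them passing at 10820 bp on chromosome 11 at 86493301 to 86493800, with 2.34 by the authors' deposited table (FDR = 0.000745). *ERO1B*, an oxidase that recharges the isomerases, had 0 listed regions.

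Genes of ER-associated degradation, by which misfolded proteins are sent to the proteasome, had 19 regions, 18 of them in set 1 and 6 passing at 3 of 6 genes. These shares, 31.6% of regions and 50.0% of genes, are near the 27.8% of listed regions and 51.4% of coding genes. *SYVN1*, the ubiquitin ligase HRD1, led with 10 set 1 regions in the most crowded window of the list, with 10 other coding genes. Its passing region nearest to the gene lies 2617 bp away on chromosome 29 at 43754401 to 43755100, with a fold of 4.08 by the authors' deposited table (FDR = 0.0193), and 1344 bp from an end of *MRPL49*. The other 2 passing regions lie 13461 and 35167 bp away, with folds of 3.00 (FDR = 0.0298) and 1.66 (FDR = 0.00157) by the authors' deposited table. Inside *SYVN1*, 1733 bp from an end, a set 1 region with a fold of 6.78 by the authors' deposited table missed the limit (FDR = 0.0542). Its other regions within 3000 bp had 1.65 inside and 4.12 outside the gene by the authors' deposited table. *SEL1L*, the partner of HRD1, had 2 regions, both passing and in set 1, at 31117 bp with 2.53 (FDR = 0.00299) and 38617 bp with 1.66 (FDR = 0.00991) by the authors' deposited table. Both are nearest to *STON2*. *DERL2*, a component of the retrotranslocation channel, had 1 set 1 region, 44313 bp away and 877 bp from an end of *RPAIN*, with 2.14 by the authors' deposited table (FDR = 0.0400). Its relative *DERL1* had 3 set 1 regions and none passed; one inside it, 703 bp from an end, had 1.38 by the authors' deposited table (FDR = 0.0721), and one 14547 bp away had 5.95 (FDR = 0.228). *HERPUD1*, a UPR target that recruits the ligase, had a set 1 region 179 bp from an end, with 1.62 by the authors' deposited table (FDR = 0.0910). *EDEM1*, a mannosidase-like protein that marks misfolded glycoproteins, had 1 region, in set 2 and inside the gene, on chromosome 22 at 21051201 to 21051600. Its fold was 1.78 by the authors' deposited table, with the smallest p of the 23 set 2 regions (p = 1.49e-05, FDR = 0.0930).

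Translocation into the ER had the fewest regions, 13 at 6 genes, with 9 in set 1 and 3 passing. That is 23.1% of regions, against 27.8% of all listed regions, and 50.0% of genes, against 51.4% of coding genes. *SEC61A1*, the pore-forming subunit of the channel, had a passing set 1 region 2113 bp outside the gene on chromosome 22 at 59438901 to 59439300. Its fold was 2.04 by the authors' deposited table (p = 1.43e-07, FDR = 0.000728), and it lies 361 bp from an end of *LOC108638599*. A second, inside *SEC61A1* and 2298 bp from an end, had 3.04 by the authors' deposited table (FDR = 0.0949), and one 6813 bp out had 5.75 (FDR = 0.0770). *SEC63*, which couples the channel to BiP, has no other coding gene within 50000 bp. Its passing set 1 region lies 955 bp outside the gene on chromosome 9 at 29452501 to 29452800, with 1.46 by the authors' deposited table (FDR = 0.00936). The partner subunits had set 2 regions alone: *SEC62* had 3, with folds of 3.57, 3.86 and 4.69 by the authors' deposited table (lowest FDR = 0.540), the first of them inside the gene and 1391 bp from an end, and *SEC61B* had 1, with 3.91 (FDR = 0.719). None of these 4 passed. Of the signal peptidase subunits, *SPCS3* had 3 set 1 regions, with 1.80 at 19829 bp (FDR = 0.00931) and 4.74 at 694 bp (FDR = 0.266) by the authors' deposited table, and *SPCS1* had 0.

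COPII genes, whose coat buds cargo vesicles from the ER, had 20 regions at 7 genes, 15 of them in set 1 and 3 passing. That is 15% of regions, against 27.8% of all listed regions, and 42.9% of genes, against 51.4% of coding genes. *SEC31A*, a subunit of the outer coat, had a passing set 1 region within its body, 562 bp from an end (chromosome 6, 98171901 to 98172300), with a fold of 1.74 by the authors' deposited table (p = 4.96e-07, FDR = 0.00181). *SEC24A*, a cargo-binding subunit, and *SAR1B*, the GTPase that starts the coat, are neighbours on chromosome 7. They share a passing region at 64390101 to 64390300 with 2.51 by the authors' deposited table (FDR = 0.00719), which lies 37440 and 12553 bp from them and 2190 bp from an end of *JADE2*. *SAR1B* had a second passing region 39603 bp away, with 2.55 by the authors' deposited table (FDR = 0.00310). The paralog *SAR1A* had 3 set 1 and 2 set 2 regions and none passed. One set 2 region lies inside *SAR1A*, 218 bp from an end, with 1.55 by the authors' deposited table (p = 0.000110, FDR = 0.298), and a set 1 region 1607 bp outside it, 141 bp from an end of *TYSND1*, had 2.32 (FDR = 0.142). *SEC23B*, an inner coat subunit, had 3 set 2 regions, with folds of 2.32, 4.52 and 5.84 by the authors' deposited table (lowest FDR = 0.466), all nearest to *DTD1*, and 1 in set 1 with 2.56. Its paralog *SEC23A* had 1 region, in set 1 with 1.29 by the authors' deposited table (FDR = 0.210), and *SEC24D* 1, in set 1 and 421 bp from an end, with 1.59 (FDR = 0.0574).

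The last group holds cargo receptors and genes of the Golgi and exocytosis. Of its 5 genes, 4 had a passing region, all in set 1, against 48.9% of coding genes. By regions, 7 of 24 passed (29.2%), near the 27.8% of all listed regions. *KDELR1*, a receptor that returns escaped ER chaperones from the Golgi, had the smallest p of all 191 regions. That region lies 32172 bp from *KDELR1* on chromosome 18 at 56074301 to 56074900, 498 bp from an end of *TMEM143*, with a fold of 2.82 by the authors' deposited table (p = 2.21e-10, FDR = 4.96e-06). A second passing region at 27855 bp had 2.88 by the authors' deposited table (FDR = 0.00972), and one inside the gene, 945 bp from an end, had 1.56 (FDR = 0.0558). *KDELR2* had 7 set 1 regions and 1 in set 2. Inside *KDELR2* on chromosome 25, a passing set 1 region at 39195301 to 39195600 (fold of 2.75 by the authors' deposited table, FDR = 0.0257) and a set 2 region at 39198601 to 39198900 (3.58, FDR = 0.223) lie close together but in opposite sets. The other passing region lies 27734 bp away with 1.44 by the authors' deposited table (FDR = 0.0155), and a set 1 region 690 bp from the gene had 2.12 (FDR = 0.224). *GOLGA2*, the Golgi matrix protein GM130, had a passing set 1 region 269 bp outside the gene on chromosome 11 at 98408001 to 98408800, 800 bp wide, with 1.85 by the authors' deposited table (p = 4.31e-09, FDR = 5.15e-05). Another passing region lies 27819 bp from it with 1.88 by the authors' deposited table (FDR = 0.0395), and one inside it, 905 bp from an end, had 4.03 (FDR = 0.142). *RAB27A*, a GTPase of secretory vesicle docking, had 3 set 1 regions, of which the passing one lies 8740 bp away with 3.64 by the authors' deposited table (FDR = 0.0411). *LMAN1*, a receptor that carries glycoproteins out of the ER, had 1 region, in set 2 and 24918 bp away, 793 bp from an end of *CPLX4*, with 2.90 by the authors' deposited table (p = 4.59e-05, FDR = 0.182).

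**Figure D3:**
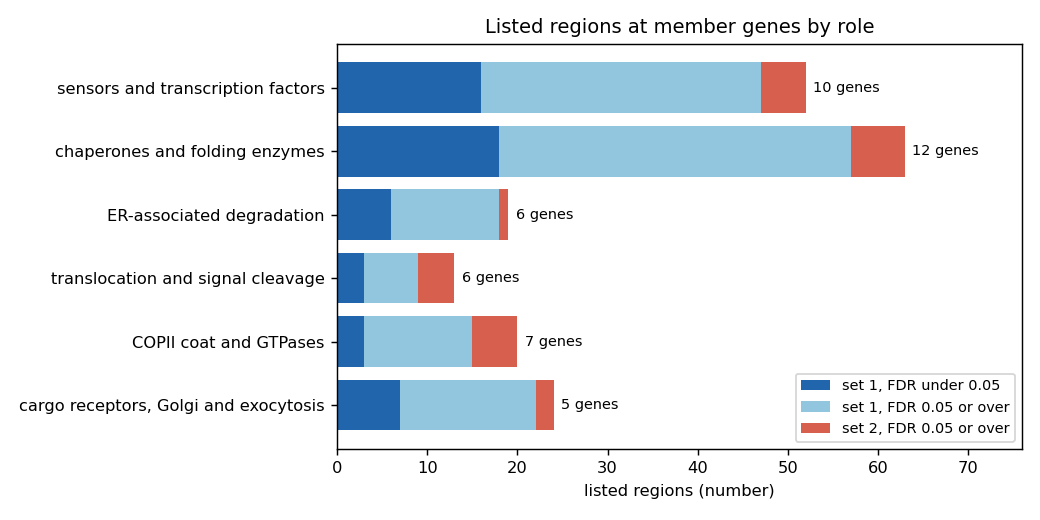
Number of listed regions (x axis) at the genes of each role (rows), split into set 1 regions at an FDR under 0.05 (dark blue), other set 1 regions (light blue) and set 2 regions (red); regions within reach of 2 genes count once per role. Chaperones and folding enzymes hold 63 regions and translocation genes 13.

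Set 2 regions took different shares of the roles, without a passing region in any of them. Translocation had 4 of 13 and COPII 5 of 20, while sensors and factors had 5 of 52, chaperones 6 of 63, cargo receptors and exocytosis 2 of 24 and degradation 1 of 19. The Wilson intervals of the set 1 shares overlap: 69.2% for translocation (42.4% to 87.3%), 75% for COPII (53.1% to 88.8%) and 90.5% for chaperones (80.7% to 95.6%). Set 1 held 74.5% of all listed regions and 84.3% of pairs over all coding genes. The order did not recur in the wider list of other secretory genes given below. There the set 1 share was 88.6% for translocation, 92.9% for COPII and 84.9% for chaperones. The difference between roles was not tested.

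Many of the regions lay at the ends of other genes. The secretory gene was the nearest coding gene for 65 of 191 regions (34.0%) and for 11 of the 53 that passed. Over all coding genes, 26413 regions, each with 1 nearest gene, made 74919 pairs. A share well under 50% thus also holds for coding genes in general. Among those that passed, 7412 regions made 22669 pairs. In all, 114 of 191 regions (59.7%) were centred within 3000 bp of the end of some coding gene, and for 84 of these the nearest end belonged to another gene. Counted as pairs, the share was 59.3%, against 49.8% over all coding genes. At their own gene's ends, 25 of 46 genes (54.3%) had a listed region within 3000 bp, against 36.4% of coding genes, and 11 (23.9%) had one at an FDR under 0.05, against 14.4%. These 11 are *ATF4*, *ERN1*, *DDIT3*, *CALR*, *PDIA3*, *P4HB*, *SYVN1*, *SEC61A1*, *SEC63*, *SEC31A* and *GOLGA2*, with 13 regions between them. The regions of *ATF4*, *DDIT3*, *SYVN1* and *SEC61A1* lie closer to an end of *RPS19BP1*, *MBD6*, *MRPL49* and *LOC108638599* in turn. Both regions of *PDIA3* lie inside *CATSPER2*. A passing region inside the gene was found at *ERN1*, *CALR*, *P4HB*, *SEC31A* and *KDELR2*. Of the 38 pairs with the region inside the secretory gene 5 passed, against 4297 of 16097 such pairs over all coding genes. The annotation used gives no strand, so a gene's start and its end could not be told apart.

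**Figure D4:**
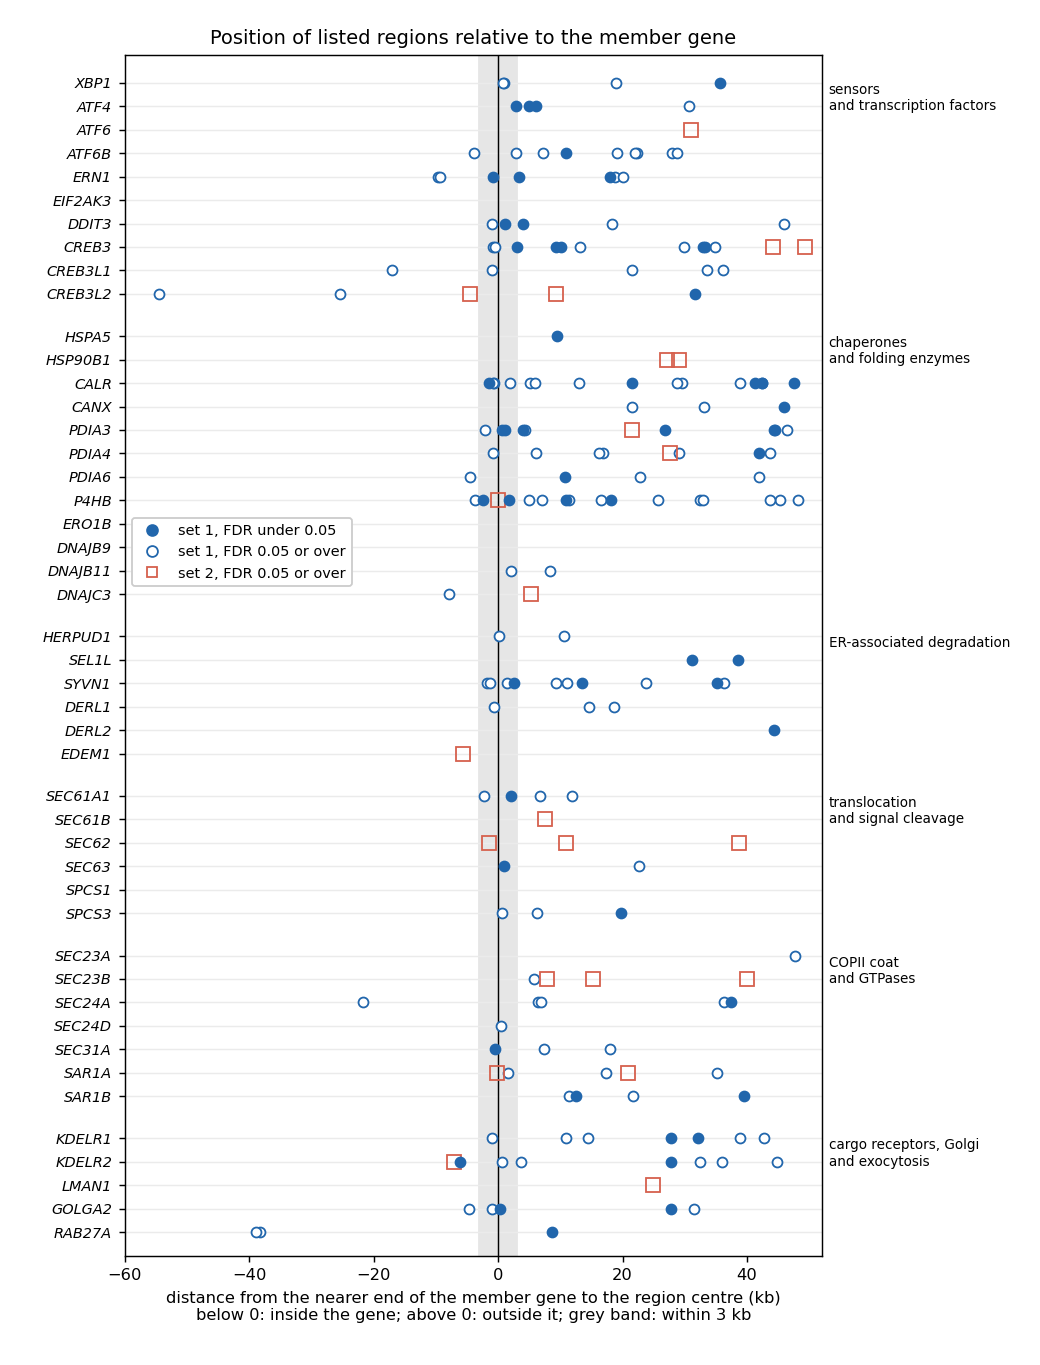
Distance in kb from the nearer end of each gene to the centre of each listed region (x axis; below 0 inside the gene, above 0 outside it), with genes as rows grouped by role and the grey band marking 3 kb either side. Filled markers (FDR under 0.05) lie in the band at 11 genes, and 63 of the 194 markers lie over 25 kb outside the gene.

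How many regions a gene had went with how many genes lay around it. The 9 genes with 6 or more coding neighbours in their window had 85 regions, a mean of 9.44, and all 9 had a passing region. Set 1 held 81 of the 85 and set 2 held 4. Over all coding genes with 6 or more neighbours, set 2 held 5.72% of the pairs, so this split was near the background. The 17 genes with 3 to 5 neighbours had a mean of 3.47 and the 20 genes with 0 to 2 neighbours a mean of 2.50, with passing regions at 10 and 8 of them. Over all coding genes the means in the same 3 classes were 7.74, 3.95 and 2.70, and 76%, 55.3% and 40.8% had a passing region. Across the 46 genes, Spearman's rho between neighbours and listed regions was 0.59, and across all coding genes 0.35; genes in 1 stretch share regions, so this is a description. For set 2 regions alone the rho across the 46 genes was 0.05. The 5 genes with the most regions (*P4HB*, *CALR*, *CREB3*, *PDIA3* and *SYVN1*) held 63 of the 194 pairs (32.5%) and 22 of the 54 passing pairs. Without them, the set 1 share of pairs was 85.5% and 22 of 41 genes (53.7%) had a passing region, closer to the 84.3% and 51.4% of all coding genes. The passing share of pairs fell from 27.8% to 24.4%, further from the 30.3% over all coding genes. The values over all coding genes were taken without leaving out their own region-rich genes.

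**Figure D5:**
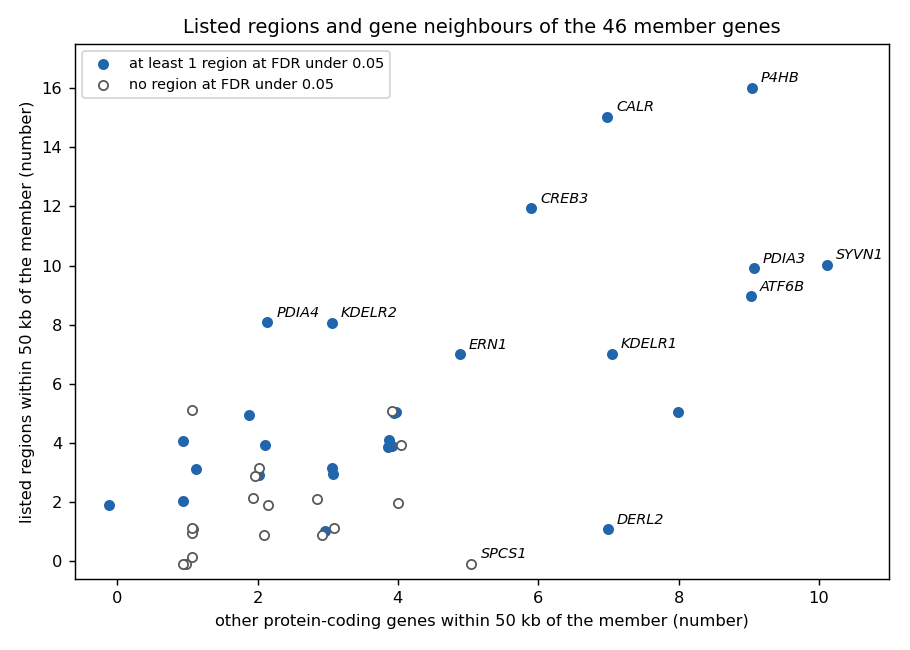
Listed regions within 50 kb of each of the 46 genes (y axis, number) against other protein-coding genes in the same window (x axis, number), with small random shifts so that points do not hide each other. Filled points have at least 1 region at an FDR under 0.05; the 9 genes with 6 or more neighbours are all filled, and *PDIA4* has 8 regions with 2 neighbours.

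A wider list of the same pathway gave similar shares. It holds 156 other secretory genes, of which 144 were placed on numbered chromosomes. Among the 144, 89 (61.8%) had a region at an FDR under 0.05 and 7 (4.86%) had one in set 2, against 51.4% and 5.06% of coding genes; of the 46 genes it was 58.7% and 0. The set 2 share was thus near the background. By role, and beside the same 51.4% of coding genes, passing regions were found at 7 of 11 sensors and factors, 13 of 22 folding genes, 8 of 14 degradation genes, 15 of 26 translocation and glycosylation genes, 3 of 9 COPII genes and 43 of 62 cargo, Golgi and exocytosis genes. The smallest p was at *SYTL2*, an effector of RAB27 proteins at secretory vesicles, with a set 1 region 3254 bp outside it (chromosome 29, 9160201 to 9161300) and a fold of 4.97 by the authors' deposited table (FDR = 2.58e-10). *EXOC6*, a subunit of the exocyst, had a set 1 region 9557 bp away, nearest to *LOC106503632*, with 1.99 by the authors' deposited table (FDR = 1.27e-06). Among sensors, *ERN2*, the IRE1 of secretory epithelia, had a set 1 region 19642 bp away, nearest to *CHP2*, with 3.29 by the authors' deposited table (FDR = 2.12e-06). The ER-anchored factor *CREB3L3* had a set 1 region 16671 bp away, nearest to *ANKRD24*, with 4.86 by the authors' deposited table (FDR = 5.13e-06). *VCP*, the ATPase that extracts misfolded proteins from the ER, had a set 1 region 17082 bp away with 1.62 by the authors' deposited table (FDR = 6.53e-08). The ubiquitin-conjugating enzyme *UBE2G2* had one 12189 bp away with 1.98 by the authors' deposited table (FDR = 1.36e-05). These regions are nearest to *C8H9orf131* and *SUMO3*. The isomerases *PDIA5* and *PDIA2* had set 1 regions with folds of 2.12 (FDR = 0.000131) and 3.61 (FDR = 0.000194) by the authors' deposited table. They lie 46530 and 18889 bp away, nearest to *SEMA5B* and *AXIN1*. *SEC61A2* and *SSR1*, of the channel and its associated complex, had set 1 regions with 3.72 (FDR = 7.15e-05) and 3.27 (FDR = 8.22e-05) by the authors' deposited table. Those regions lie 48781 and 18614 bp from the genes, nearest to *UPF2* and *CAGE1*. *MIA3*, which helps load large cargo into COPII vesicles, had a set 1 region inside the gene, 908 bp from an end, with 2.06 by the authors' deposited table (FDR = 0.0143).

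The 7 genes of the wider list with a passing set 2 region were spread over 4 roles. *EXOC3*, a subunit of the exocyst, had the largest fold, 20.7 by the authors' deposited table (p = 1.53e-09, FDR = 0.000138), from a region 21965 bp away on chromosome 20 at 71614801 to 71615500 that is nearest to *AHRR*. *MBTPS1*, the protease that cleaves ATF6 in the Golgi, had a set 2 region inside the gene, 13570 bp from an end, with 3.31 by the authors' deposited table (FDR = 0.0327). The Golgi GTPase *ARF4* had 3.47 (FDR = 0.00283) and the vesicle tether *USO1* 3.81 (FDR = 0.0136) by the authors' deposited table. *CLGN*, a calnexin-like chaperone known from the testis, had 2.60 (FDR = 0.0290), *TXNDC11* 2.46 (FDR = 0.0349) and the outer coat subunit *SEC31B* 3.50 (FDR = 0.0392) by the authors' deposited table. Apart from that of *MBTPS1*, these regions lie outside the genes, 13226 to 32014 bp from an end.

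At the limit of 50000 bp, the regions just inside were at *CREB3* (49361 bp, set 2, fold of 1.77 by the authors' deposited table), *P4HB* (48162 bp, set 1, 1.90) and *SEC23A* (47718 bp, set 1, 1.29). The regions just outside were at *SEC63* (50479 bp, set 1, fold of 2.10 by the authors' deposited table), *ATF6B* (50958 bp, set 1, 1.91) and *LMAN1* (51318 bp, set 2, 1.67).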

How the data were processed

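ATAC-seq libraries were made from 50000 cells each, 3 of the lactation period and 3 of the dry period, per the labels. Bowtie2 2.2.5 and MACS2 are named in the submitters' processing notes, without a role. One deposited table of 30714 differing regions was used. Its fold change (a linear ratio), p-value and Benjamini-Hochberg FDR were computed by the authors over the libraries together; which test was used is not stated there. The signal value, a score in the deposited table, was not used. For the genome build, the sources used here give no name. Regions were placed on the RefSeq genes of ARS1.2 by chromosome and position, a match that was checked by shifting positions, and starts were raised by 1 bp to count from 1. No strand and no sequence were used.

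A region belonged to a gene when its centre lay in the gene or within 50000 bp of it. Counts, medians and Wilson intervals (95%, counting error only) were computed with Python 3.11.15, pandas 2.3.3, numpy 2.4.6 and scipy 1.17.1, and figures with matplotlib 3.10.9. The placement was tested on simulated regions. No test over libraries was possible, since the table has no value per library. The 46 genes and the other lists were chosen with earlier results of these data known. Genes were named with values for each region at an FDR under 0.05 (some as ranges), within 3000 bp of an end of the gene, or in set 2 inside it, and for the 5 largest folds and 5 smallest p in each set. Other secretory genes were named for the smallest p of each role, up to 2, and up to 6 for set 2. The alternatives were other windows, limits on p, FDR and fold, and nearest genes alone.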

Additional observations from a re-analysis of the deposited data

How the results depend on the processing

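Of 48 values recomputed under other settings (8 results), 26 moved little, 22 moved more and 0 changed direction. Counts of regions and medians of folds above 1 have no direction that could change, so the 0 says nothing about them. In the main setting 41 regions, 21.5% of the 191, lay within 3000 bp of the gene's end. Counted as pairs this was 21.1%, against 14.9% over all coding genes. In a window of 10000 bp there were 87 regions, 23 of them at an FDR under 0.05, and 32.6% of genes had one. The same 41 regions then made up 47.1%. Inside the genes alone there were 38 regions, 5 passing, at 10.9% of genes, with 55.3% within 3000 bp of an end and a set 1 median fold of 2.07. With nearest genes alone there were 65 regions, 11 passing, at 19.6% of genes, and 47.7% within 3000 bp. At an FDR under 0.01, 26 regions passed, at 39.1% of genes, and at p under 1e-05, 29 passed, at 39.1% of genes. These shares of genes were not computed over all coding genes, so how they stand to the background is unknown. The same holds for the passing counts, other than inside the genes. With a log2 fold of at least 1, 124 regions remained and the set 1 median fold was 2.75. At p under 1e-04, 72 regions were left, 93.1% of them in set 1, and the set 2 median fold was 2.28. The narrower windows and nearest genes alone count fewer regions by construction. In the window of 10000 bp the share near an end rises by construction too, since the regions within 3000 bp all stay in. The limits at an FDR of 0.01 and a p of 1e-05 call fewer of the same 191, and the limit on fold raises the median by selecting on fold. The cause of the other shifts was not tested. Counting any overlap with the window gave 191 regions and 53 passing, as with centres. No paired analysis was possible because the table holds no values per library, and for the same reason no replicate could be left out. Depth is unknown, so what it limits could not be given.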

Other observations

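Many regions stood in short runs. With gaps of at most 2000 bp, 59 of the listed regions at the secretory genes formed 29 runs at 15 genes (runs at *SAR1B* and *SEC24A* are counted at each), and 28 of the 29 held regions of 1 set. The exception was at *SEC23B*, where a set 1 region and a set 2 region span 2400 bp. There were 3 runs of 3 regions, at *ATF4* (4000 bp), *CALR* (2600 bp) and *ERN1* (2600 bp), all in set 1. No comparison with other genes was made.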
